A study of Mus musculus with 3 samples.

Results

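Elane, Prtn3, Mpo, Ctsg, Prss57, Ms4a3, Ctsc, Serpinb1a, Cst7 and Slpi were followed through 3 single-cell RNA libraries of mouse bone marrow. These 10 genes were taken by name, as the primary granule proteases with their companions and inhibitors, from 27998 genes in the matrices, and all 10 were present and passed a minimum of 20 CPM (counts scaled to a library total of 1000000) in at least 1 library. The study induced the leukaemia fusion Runx1-Runx1t1 (also called AML1-ETO) in C57BL/6 mice and sorted live (DAPI-), lineage-negative, c-kit+ marrow cells for 10x Genomics sequencing. The mCherry library held the fusion-expressing cells of 1 mouse with Mx1-Cre and a heterozygous conditional knock-in of the fusion, which carries the mCherry reporter downstream and is switched on by poly(I:C). The non_mCherry library held the mCherry- cells of that same mouse, which carry the same alleles and come from the same induced animal, and the control library came from 1 wild-type mouse, for which the labels do not say whether poly(I:C) was given. Mx1-Cre is driven by an interferon-responsive promoter and is active in many blood and non-blood cells, so the fusion was not limited to a chosen progenitor. With 1 library a group no test between groups was possible, the mouse and the group cannot be told apart for the control, and every 95% interval below covers counting error only.

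Primary (azurophil) granules are loaded in granulocyte and monocyte progenitors. Elane (neutrophil elastase), Prtn3 (proteinase 3), Ctsg (cathepsin G) and Prss57 (neutrophil serine protease 4) are serine proteases, and Mpo is the peroxidase that makes hypochlorous acid in the same granules. Ctsc (cathepsin C) removes the inhibitory dipeptide from the serine protease precursors. Serpinb1a is a cytosolic serpin that inactivates elastase, proteinase 3 and cathepsin G, Cst7 (cystatin F) inhibits cysteine cathepsins, cathepsin C among them, and Slpi is a secreted inhibitor of elastase. Ms4a3 is a membrane protein used as a marker of granulocyte-monocyte progenitors.

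The promoters are shown because the knock-in encodes a fusion of the RUNX1 DNA-binding domain, and PU.1 and C/EBP factors are the textbook activators of this gene set. RefSeq (build GRCm38.p6) gave a promoter for 8 of the 10 genes. The 250 bases before the RefSeq start are printed for Elane and Prtn3, which were very low in mCherry cells, for Mpo and Ctsg, which were not, and for the inhibitor Cst7. Each runs 5′ to 3′ on the gene's own strand. Capitals mark GAGGAA (PU.1), TGTGGT or TGCGGT (RUNX) and TTNNGNAA (C/EBP), or their reverse complements.
Elane (chr10:79886062-79886311, plus strand): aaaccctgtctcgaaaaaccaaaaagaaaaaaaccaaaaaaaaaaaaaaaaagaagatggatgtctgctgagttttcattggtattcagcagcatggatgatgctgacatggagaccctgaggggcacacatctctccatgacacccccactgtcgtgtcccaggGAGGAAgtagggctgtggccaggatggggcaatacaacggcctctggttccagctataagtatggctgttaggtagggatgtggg
Prtn3 (chr10:79879417-79879666, plus strand): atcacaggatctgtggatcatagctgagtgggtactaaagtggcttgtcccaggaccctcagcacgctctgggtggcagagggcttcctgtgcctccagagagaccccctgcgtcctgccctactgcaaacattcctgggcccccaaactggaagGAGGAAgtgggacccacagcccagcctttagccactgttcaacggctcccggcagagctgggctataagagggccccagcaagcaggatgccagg
Mpo (chr11:87793534-87793783, plus strand): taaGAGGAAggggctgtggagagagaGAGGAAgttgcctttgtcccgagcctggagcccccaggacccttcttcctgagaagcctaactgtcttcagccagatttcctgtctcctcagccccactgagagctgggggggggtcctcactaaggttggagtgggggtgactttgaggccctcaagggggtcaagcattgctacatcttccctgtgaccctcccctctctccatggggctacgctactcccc
Ctsg (chr14:56102575-56102824, minus strand): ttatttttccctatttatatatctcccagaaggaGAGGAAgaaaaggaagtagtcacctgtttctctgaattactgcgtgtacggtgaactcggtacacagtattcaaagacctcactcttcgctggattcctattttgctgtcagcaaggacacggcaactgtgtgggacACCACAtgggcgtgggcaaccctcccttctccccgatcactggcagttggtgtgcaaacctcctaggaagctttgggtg
Cst7 (chr2:150570165-150570414, plus strand): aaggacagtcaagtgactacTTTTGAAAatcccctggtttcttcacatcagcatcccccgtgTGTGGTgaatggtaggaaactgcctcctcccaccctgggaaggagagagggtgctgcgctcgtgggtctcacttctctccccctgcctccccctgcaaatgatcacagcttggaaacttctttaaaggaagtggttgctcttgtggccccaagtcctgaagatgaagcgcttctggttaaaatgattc
Elane and Prtn3 each held 1 GAGGAA, 85 and 95 bases before the start, and neither held a RUNX or C/EBP match. Mpo held 2 GAGGAA matches, 247 and 224 bases before the start. Ctsg held GAGGAA at 216 bases and a RUNX match (ACCACA on the printed strand) at 79 bases, and Cst7 held a C/EBP match at 230 bases and a RUNX match at 188 bases. Of the 8 promoters, 5 held the PU.1 letters, 3 the C/EBP letters and 2 the RUNX letters, against 23.3%, 36.8% and 18.6% of 32851 mouse promoters of the same length. No motif overlapped another in the printed windows, and a match describes letters, not a bound site.

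The libraries held 10150 mCherry, 7850 non_mCherry and 8857 control cells after filtering, with 92048702, 86852479 and 143339512 UMIs (unique molecular identifiers, one per captured RNA molecule). Median depth was 8173.5, 9241.5 and 15416 UMIs a cell, so shares of cells are given after thinning every cell to 4000 UMIs. The labels were checked on Runx1t1, the fusion partner that is little expressed in normal blood cells, at 8.47 CPM in mCherry, 0.311 CPM in non_mCherry and 0.216 CPM in control. Kit was at 269, 56.6 and 66.8 CPM in the same order. Barcodes shared between libraries were few, 36 for mCherry and control, 20 for mCherry and non_mCherry and 16 for non_mCherry and control. The libraries differed in cell types: the summed level of the 7 mast cell markers (Cpa3, Cma1 and others) was 11401 CPM in mCherry, 312 CPM in non_mCherry and 236 CPM in control, that of the 8 stem and multipotent markers (Hlf, Procr and others) 1521, 144 and 162 CPM, and that of the 7 neutrophil-directed markers (Cebpe, Clec12a and others) 139, 335 and 496 CPM. Cpa3 alone gave 10471 CPM of the mast cell sum in mCherry. Against control, 3 of 5 tested mast cell markers were at least 2-fold higher in mCherry and 1 lower (Gzmb), 5 of 7 stem markers were higher, and 5 of 6 neutrophil-directed markers lower, where 18.5% of all genes tested were higher and 12.3% lower. None of the markers on these 3 lists was at 0 in any library, and their part in the levels below was not tested beyond the splits by Cma1 and Hlf. In summed libraries fewer cells of a type and less RNA per cell cannot be told apart.

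Proteases and inhibitors parted in mCherry cells. Of the 10 genes, 7 were at least 2-fold lower in mCherry than in control (Elane, Prtn3, Mpo, Ctsg, Prss57, Ms4a3 and Slpi), where 12.3% of 6580 genes tested were, and 2 were at least 2-fold higher (Serpinb1a and Cst7), where 18.5% were. The same 7 and 2 genes were past 2-fold against non_mCherry, beside 11.1% and 17.6% of 6570 genes. The median log2 ratio of the 10 genes was -3.11 over control and -2.59 over non_mCherry, against 0.08 and 0.10 over all genes tested. Both comparisons share the mCherry library.

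Elane was at 12.6 CPM in mCherry, 1431 CPM in non_mCherry and 2909 CPM in control. It was 230-fold lower in mCherry than in control (218 to 244) and 113-fold lower than in non_mCherry (107 to 120). By log2 ratio to control it ranked the lowest of the 6580 genes. Prtn3, its neighbour on chromosome 10, was at 63.4 CPM in mCherry, 2515 CPM in non_mCherry and 4063 CPM in control, 64.1-fold lower than control (62.4 to 65.8), the 4th lowest gene. Prss57 was at 1.06 CPM in mCherry, 80.2 CPM in non_mCherry and 93.1 CPM in control, 87.5-fold lower than control. These 3 genes lie within 100 kb of Elane on chromosome 10, and all 3 were lowest in the mCherry library.

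Mpo and Ctsg stood apart from them. Mpo was at 568 CPM in mCherry, 1594 CPM in non_mCherry and 2640 CPM in control, 4.65-fold lower than control (4.61 to 4.69). Ctsg was at 621 CPM in mCherry, 1357 CPM in non_mCherry and 1993 CPM in control, 3.21-fold lower than control (3.18 to 3.24). The 5 protease and peroxidase genes together made up 0.127% of all UMIs in mCherry, 0.698% in non_mCherry and 1.17% in control. Within that sum the make-up differed as well: Mpo and Ctsg gave 44.8% and 49.1% of it in mCherry, 22.8% and 19.5% in non_mCherry and 22.6% and 17.0% in control, while Elane gave 0.997%, 20.5% and 24.9%.

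Ms4a3, the progenitor marker, was at 18.3 CPM in mCherry, 371 CPM in non_mCherry and 482 CPM in control, 26.4-fold lower than control. Ctsc, the activating protease, was at 45.5 CPM in mCherry, 32.5 CPM in non_mCherry and 46.2 CPM in control. Its fold of mCherry over control was 0.98 (0.947 to 1.02), an interval that spans no difference, although the proteases it processes were low.

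The inhibitors split. Serpinb1a was at 959 CPM in mCherry, 191 CPM in non_mCherry and 227 CPM in control, 4.23-fold higher than control (4.17 to 4.28) and 5.03-fold higher than non_mCherry (4.94 to 5.11). Cst7 was at 373 CPM in mCherry, 102 CPM in non_mCherry and 117 CPM in control, 3.18-fold higher than control (3.13 to 3.24). Slpi went the way of the proteases, with 0.587 CPM (54 UMIs) in mCherry, 67.9 CPM in non_mCherry and 162 CPM in control, 276-fold lower than control (212 to 368). Serpinb1a and Cst7 were highest, and the secreted Slpi lowest, in the same library.

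Between non_mCherry and control, 2 of the 10 genes were at least 2-fold lower (Elane, 2.03-fold, and Slpi, 2.38-fold), where 0.319% of 5634 genes tested were, and 0 were at least 2-fold higher, where 1.4% were. Over all kept cells the other 8 genes were 1.15-fold to 1.66-fold lower in non_mCherry. For most of these 8 genes this direction did not hold in the Hlf-positive cells described below. With cells weighted equally, in place of by their UMIs, 4 genes passed 2-fold. The B cell progenitor markers summed to 48.8 CPM in mCherry, 1719 CPM in non_mCherry and 63.4 CPM in control, and their part in the lower non_mCherry levels was not tested.

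**Figure D1:**
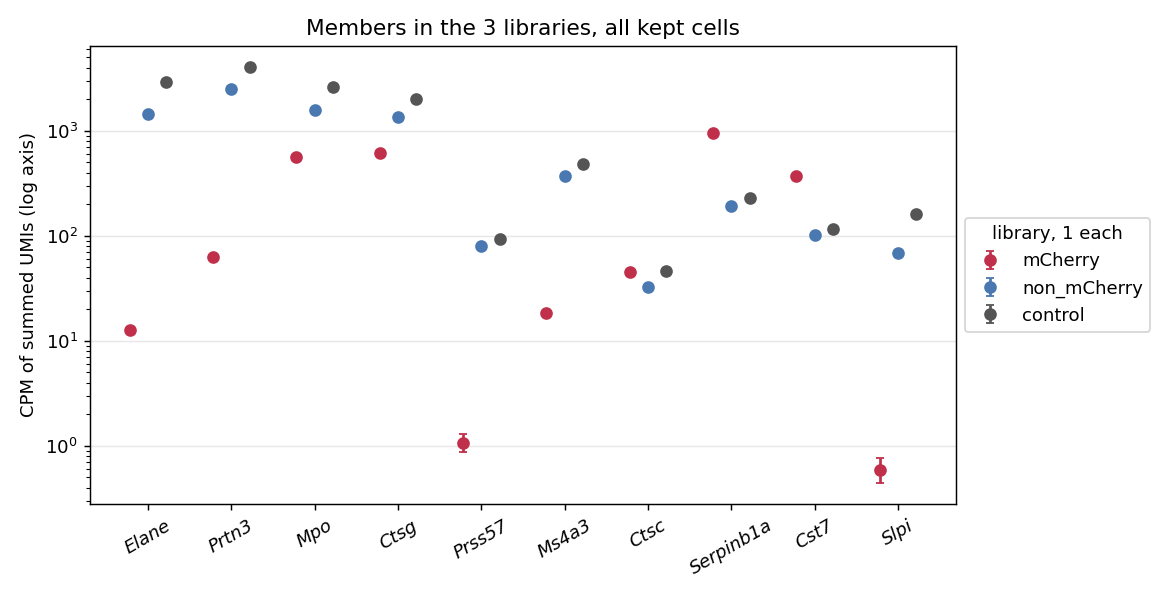
Level of the 10 genes in each library, in CPM of summed UMIs on a log axis; each point is 1 library and bars are 95% Poisson intervals, often smaller than the point. Elane sits at 12.6, 1431 and 2909 CPM in mCherry, non_mCherry and control, while Serpinb1a and Cst7 are highest in mCherry at 959 and 373 CPM.

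At a matched 4000 UMIs a cell, Elane was seen in 18 of 9813 mCherry cells (0.183%, 0.109 to 0.290), in 32.4% of 6755 non_mCherry cells and in 51.9% of 8562 control cells. Prtn3 was seen in 14.1% of mCherry, 58.2% of non_mCherry and 77.0% of control cells. Prss57 and Slpi were each in 14 mCherry cells (0.143%), against 17.3% and 11.9% of non_mCherry cells and 20.9% and 25.9% of control cells. For these genes mCherry was lowest both in level and in the share of cells.

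Mpo and Ctsg were spread differently. Mpo was seen in 64.6% of mCherry, 50.3% of non_mCherry and 69.0% of control cells, and Ctsg in 63.2%, 46.6% and 62.2%. A mean mCherry cell held 2.02 Mpo UMIs, a non_mCherry cell 4.79 and a control cell 9.11, and for Ctsg these means were 2.66, 4.15 and 6.88. Most mCherry cells carried a few UMIs of each, and no order of the libraries is read from these shares, because they go against the CPM. At 8000 UMIs a cell the Mpo share was 82.2% in mCherry and 2.49 points above control, where at 4000 it was below.

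Serpinb1a was seen in 93.6% of mCherry cells (93.1 to 94.1), 37.7% of non_mCherry cells and 48.2% of control cells. Cst7 was seen in 71.3%, 26.5% and 31.7%. Ctsc was seen in 15.5%, 11.7% and 15.7%, and Ms4a3 in 6.02%, 29.4% and 40.6%. Without thinning, the shares for Elane were 0.207%, 41.8% and 71.0%, for Mpo 74.6%, 58.5% and 83.4%, for Serpinb1a 98.4%, 50.2% and 71.8% and for Cst7 86.6%, 42.9% and 61.7%. Serpinb1a or Cst7 was seen in 97.8% of mCherry, 49.7% of non_mCherry and 61.4% of control cells. Of mCherry cells, 12.1% (1190 cells) held one of these inhibitors and no protease or Mpo UMI, against 5.76% of non_mCherry and 3.1% of control cells. With or without an inhibitor, cells with no protease or Mpo UMI made up 12.6% of mCherry, 25.2% of non_mCherry and 10.8% of control cells. All 5 protease and peroxidase genes were seen together in 4 mCherry cells, 753 non_mCherry cells and 1425 control cells.

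Free RNA gives a background to such shares. Erythroid progenitor-like cells of control (median depth before thinning 12625 UMIs) were read at 4000 UMIs. They gave Elane in 20%, Prtn3 in 38.6%, Mpo in 27.1%, Ctsg in 17.3%, Serpinb1a in 11.1% and Cst7 in 15.8% of cells. This class pools unlike clusters, led by Hba-a1 and by Gm15915 and Car1. In that order, Serpinb1a was in 2.65% and 14.3% of cells and Cst7 in 1.77% and 21.3%. Prtn3 was in 25.9% and 43.6%, and Elane in 19.9% and 20.03%. The pooled shares are therefore not read as free RNA alone, and the part of expression in them was not tested. The B cell progenitor-like cells of non_mCherry (median depth 5047 UMIs) gave Elane in 10.5%, Prtn3 in 20.7%, Mpo in 20.1%, Ctsg in 11.3% and Cst7 in 1.58%. For Serpinb1a the B cell progenitor-like share was 14.4%. These levels belong to the control and non_mCherry libraries, and the free RNA of the mCherry library, which has no such cell class of 50 cells, was not measured. In mCherry the share of Prtn3 (14.1%) is below the 38.6% of control erythroid cells. That share comes from another library, so it does not tell expression from free RNA in mCherry. Elane was in 0.109% of cells of the mCherry clusters described next, and Prtn3 gave 4196 UMIs there beside 11 of Elane. Prtn3 UMIs per Elane UMI were 381 there, 1.43 in mCherry cells outside those clusters and 1.40 in control cells outside them. The part of free RNA in these counts was not tested.

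**Figure D2:**
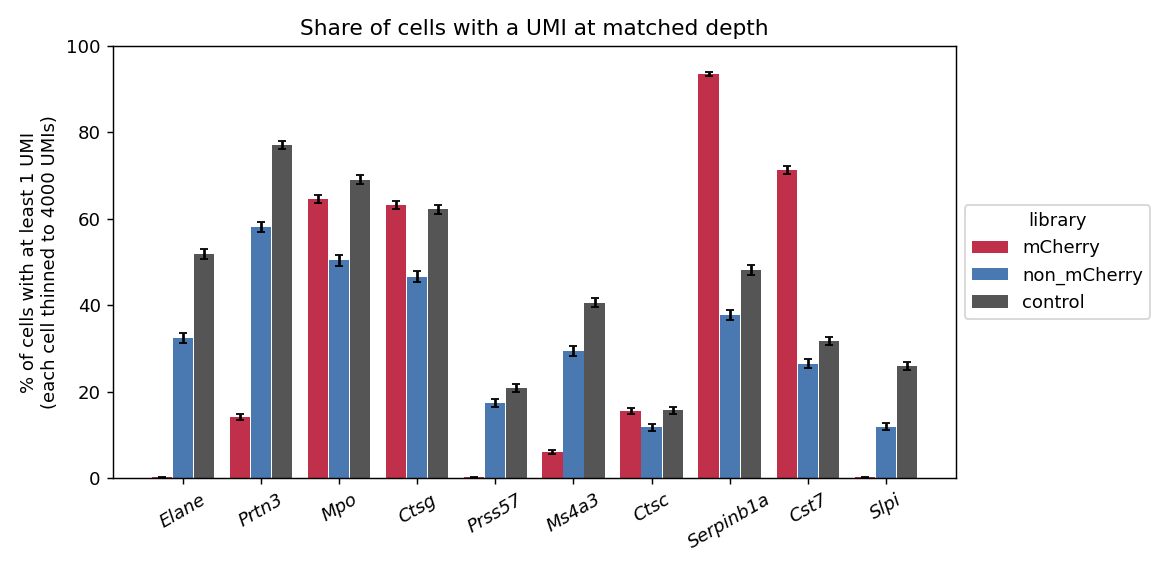
Percentage of cells with at least 1 UMI of each gene after thinning each cell to 4000 UMIs, by library, with 95% Clopper-Pearson intervals. Elane, Prss57 and Slpi are close to 0 in mCherry, Mpo and Ctsg are at 64.6% and 63.2%, and Serpinb1a and Cst7 reach 93.6% and 71.3%.

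Clusters were made from all 3 libraries without the 10 genes and without other granule genes, so their levels did not shape them. Of 24 clusters, 6 were drawn from mCherry cells to at least 98.4% and held 10102 of 10150 mCherry cells; in no other cluster did mCherry cells exceed 8.08%. With 1 library a group, a cluster of this kind may be the library or a cell type. Inside these 6 clusters the mCherry cells had 11 Elane UMIs in 91394880 (0.120 CPM). That was 24173-fold lower than in all kept control cells (13510 to 48425), an unlike set from which no Elane-high cells were left out. The other 1151 Elane UMIs of mCherry (99.1%) came from the 48 mCherry cells outside. Of these cells, 9 held at least 10 UMIs each and 1150 in all. The 12.6 CPM of the mCherry library thus describes those few cells, and 1 of the 48 barcodes also occurred in another library.

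Prss57 and Slpi behaved likewise, with 29 UMIs (0.317 CPM) and 14 UMIs (0.153 CPM) inside the 6 clusters. Prtn3 inside stood at 45.9 CPM in 2419 cells. Mpo and Ctsg kept 98.2% and 98.5% of their mCherry UMIs inside, at 561 and 617 CPM, and Serpinb1a and Cst7 kept 99.7% of theirs each, at 963 and 375 CPM. The levels of Mpo, Ctsg, Serpinb1a and Cst7 given for the library are those of its main population.

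That population was not uniform. Across its 6 clusters Ctsg ranged over 325 to 1369 CPM, Mpo over 131 to 863 CPM, Prtn3 over 17.2 to 83.9 CPM, Serpinb1a over 750 to 1736 CPM and Cst7 over 251 to 483 CPM. The mast cell-like cluster, led by Cma1, Sapcd1 and Mcpt4, had the highest Ctsg (1369 CPM) and Serpinb1a (1736 CPM) and the lowest Mpo (131 CPM) and Cst7 (251 CPM). The dividing cluster, led by Fam64a and Cenpf, had the highest Mpo (863 CPM). The cluster led by Slc16a11 and Socs3 had the highest Prtn3 (83.9 CPM), and that led by Ccl2 and Gadd45b the lowest (17.2 CPM) with the highest Cst7 (483 CPM).

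In control the same genes peaked together. The cluster led by Prg2, Prg3 and Cebpe held Elane at 11647 CPM, Prtn3 at 11062 CPM, Mpo at 6504 CPM, Ctsg at 5917 CPM, Ms4a3 at 1895 CPM and Prss57 at 355 CPM. Monocyte progenitor-like cells led by F13a1 held Elane at 4727 CPM, Prtn3 at 7297 CPM and Slpi at 400 CPM. Basophil-like cells held Ctsg at 2774 CPM and Mpo at 2120 CPM with Elane at 326 CPM, so Ctsg and Mpo well above Elane also occurred in control. Prtn3 was at 916 CPM and Ms4a3 at 596 CPM in these basophil-like cells, against 45.9 and 15.6 CPM in mCherry cells of the mCherry clusters. Serpinb1a was highest in the neutrophil-like cluster led by Camp and Ngp, at 894 CPM, where Slpi was also highest at 517 CPM. In the late erythroid cluster led by Hba-a1, Elane was at 46.6 CPM and Serpinb1a at 7.2 CPM. The mast cell-like control cluster led by Gzmb and Scin (115 cells) held Serpinb1a at 324 CPM and Cst7 at 156 CPM. Its Elane was at 72.3 CPM, Prtn3 at 128 CPM, Mpo at 112 CPM and Ctsg at 107 CPM. Lymphoid-primed progenitor-like control cells held Serpinb1a at 260 CPM, Cst7 at 69.8 CPM, Elane at 60.9 CPM and Prtn3 at 297 CPM. Serpinb1a with little Elane thus also occurred in control, below its mCherry level.

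A few cells of the mCherry clusters came from the other libraries. The 113 non_mCherry cells there held Elane at 27.6 CPM, Prtn3 at 134 CPM, Mpo at 475 CPM and Ctsg at 615 CPM. They held Serpinb1a at 944 CPM and Cst7 at 309 CPM. Runx1t1 was at 9.20 CPM in them, on 5 UMIs (2.99 to 21.5 CPM). None of their barcodes occurred in another library. Mpo, Ctsg, Serpinb1a and Cst7 lay near the mCherry levels in these cells. Elane and Prtn3 were above the 0.120 and 45.9 CPM of mCherry cells there, at about the 26.6 to 37.9 CPM and 53.1 to 134 CPM seen in the erythroid and B cell progenitor-like clusters of non_mCherry. From control, 2 cells fell in these clusters.

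**Figure D3:**
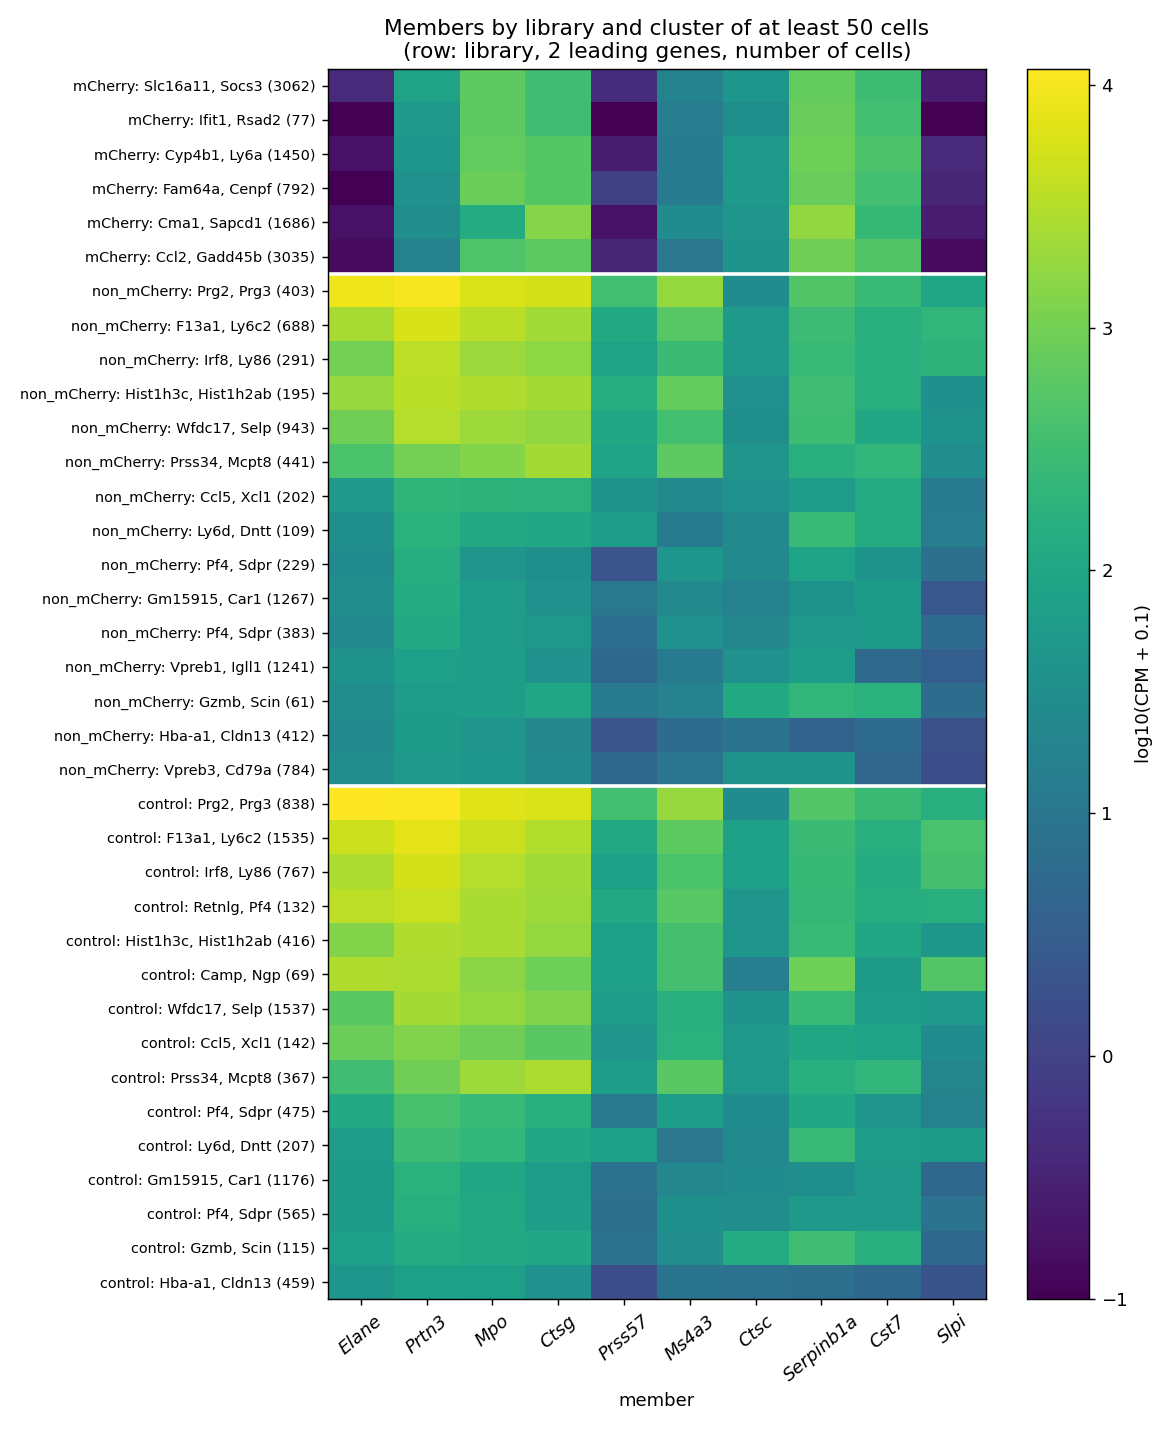
Level of the 10 genes, as log10(CPM + 0.1), in each library and cluster of at least 50 cells, with rows named by library and 2 leading genes. The 6 mCherry rows keep Serpinb1a between 750 and 1736 CPM while Elane is at most 0.295 CPM, and in the other libraries both are high together in the Prg2 rows.

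Serpinb1a did not climb steadily with the summed protease and Mpo UMIs over the cells of the mCherry library. Mpo and Ctsg gave 44.8% and 49.1% of that sum in mCherry. Cells at 4000 UMIs were grouped by their summed UMIs of Elane, Prtn3, Mpo, Ctsg and Prss57, as 0, 1 to 2, 3 to 9, 10 to 49 and 50 or more. In mCherry, Serpinb1a was 1209 CPM in the 1236 cells with none, then 964, 875 and 1207 CPM, and 1906 CPM in the 45 cells with 50 or more. Over the same groups it was 49.5, 74.1, 219, 261 and 391 CPM in non_mCherry, and 66.9, 81.7, 206, 227 and 364 CPM in control. Serpinb1a climbed with the protease UMIs in non_mCherry and control, whereas mCherry cells with no protease UMI had as much of it as those with 10 to 49 and more than every control group.

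Cst7 was 267, 330.5, 394, 450 and 383 CPM over the same 5 groups in mCherry, 32.0, 45.3, 117, 140 and 195 CPM in non_mCherry and 40.9, 51.1, 51.3, 125 and 199 CPM in control. It was higher in cells with 10 to 49 than with no protease UMIs in all 3 libraries, and each mCherry group was above every control group. Ctsc was within 43.9 to 46.9 CPM in the 4 lower mCherry groups.

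Proteases went together over cells in non_mCherry and control. The Spearman correlations among Elane, Prtn3, Mpo and Ctsg lay between -0.09 and 0.07 in mCherry (9813 cells), 0.66 and 0.81 in non_mCherry (6755 cells) and 0.77 and 0.87 in control (8562 cells). Serpinb1a and Mpo gave -0.16 in mCherry, 0.46 in non_mCherry and 0.40 in control. Serpinb1a and Ctsg gave 0.08, 0.47 and 0.39 in the same order. Cst7 and Ctsg gave 0.18, 0.36 and 0.37. These describe cells of 1 library each, which share depth and free RNA. Elane was seen in 18 of the 9813 mCherry cells, and weak values in such sparse counts are not findings.

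**Figure D4:**
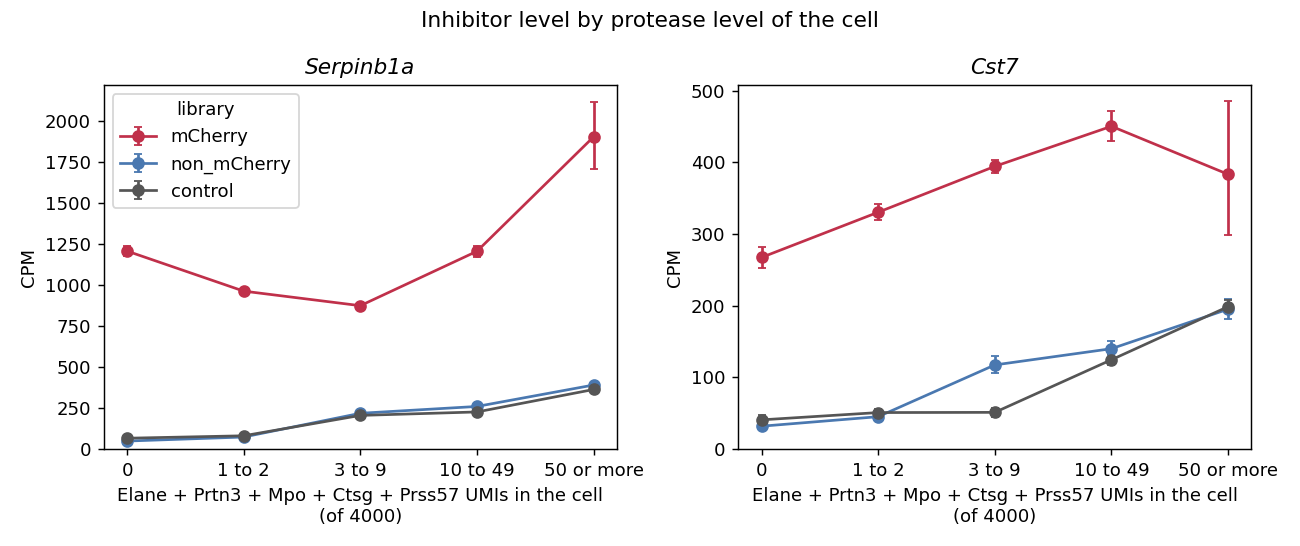
Level of Serpinb1a (left) and Cst7 (right) in CPM by the summed protease and Mpo UMIs of the cell, each cell thinned to 4000 UMIs, with 95% Poisson intervals. Serpinb1a lies between 875 and 1906 CPM in mCherry in every group and between 66.9 and 364 CPM in control.

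Mast cell genes moved with part of this pattern. Ctsg lies on chromosome 14 (chr14:56099881-56102574, minus strand, mm10) in the gene cluster of mast cell and lymphocyte granule proteases, near Cma1 (mast cell chymase, chr14:55941451-55944675). From 0 to 1 to 2 to 3 or more Cma1 UMIs (8366, 860 and 587 mCherry cells), Ctsg was 420, 810 and 3954 CPM, Mpo 548, 374 and 102 CPM and Prtn3 60.8, 45.9 and 9.37 CPM. Ctsg was higher, and Mpo and Prtn3 lower, in the cells with more of the mast cell gene. Serpinb1a was 912, 1103 and 1774 CPM and Cst7 368, 380 and 329 CPM over the same groups. Both inhibitors were thus above control (227 and 117 CPM) in mCherry cells with no Cma1 UMI. Cpa3 was seen in 99.9% of mCherry cells of the mCherry clusters before thinning, so cells without a Cma1 UMI need not lack mast cell genes.

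**Figure D5:**
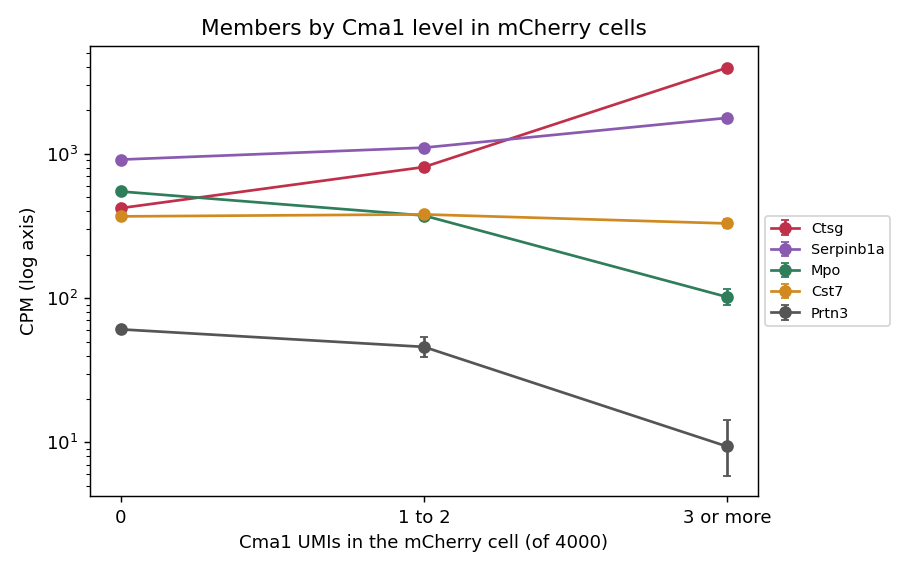
Level of 5 genes in mCherry cells grouped by Cma1 UMIs (0, 1 to 2, 3 or more), in CPM on a log axis, each cell thinned to 4000 UMIs, with 95% Poisson intervals. Ctsg climbs to 3954 CPM and Mpo drops to 102 CPM in cells with 3 or more Cma1 UMIs.

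Because mCherry cells held more stem and multipotent marker RNA, the genes were also compared in cells with at least 1 UMI of Hlf, a stem cell transcription factor that was itself at 295, 10.9 and 22.9 CPM in mCherry, non_mCherry and control. They numbered 5910 mCherry, 316 non_mCherry and 780 control cells (60.2%, 4.68% and 9.11%). Here 6 genes were at least 2-fold lower in mCherry than in control, beside 8.55% of 6562 genes, and 2 were at least 2-fold higher, beside 11.2%. Elane was at 4.72 CPM in mCherry, 933 CPM in non_mCherry and 1031 CPM in control, and Prtn3 at 58.4, 2072 and 2067 CPM. Of the 259 Elane UMIs of these mCherry cells, 252 came from the 2 cells outside the 6 clusters. Mpo was at 587, 1419 and 1307 CPM and Ctsg at 507, 1255 and 914 CPM, with Ctsg 1.80-fold lower than control (1.76 to 1.85). Serpinb1a was at 917, 313 and 246 CPM and Cst7 at 361, 109 and 61.5 CPM, 3.72-fold and 5.87-fold higher in mCherry than in control. The gate does not make the cells alike: within it Hlf was at 421, 172 and 208 CPM and Cpa3 at 9666, 817 and 85.5 CPM, and 5908 of the mCherry, 37 of the non_mCherry and 0 of the control cells lay in the mCherry clusters.

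Against non_mCherry, 7 genes were at least 2-fold lower in the Hlf-positive cells, beside 6.25% of 6482 genes, and 2 were higher, beside 12%. Non_mCherry and control Hlf-positive cells had 0 genes past 2-fold in either direction, where 0.372% and 0.795% of 5913 genes were. A stricter gate changed the picture for Mpo and Ctsg. With at least 3 Hlf UMIs (1496 mCherry and 78 control cells), Mpo was at 501 CPM in mCherry and 417 CPM in control (1.20-fold, 1.01 to 1.44), and Ctsg at 353 and 80.1 CPM (4.4-fold higher, 2.97 to 6.82). Elane had 1 UMI in these mCherry cells (0.167 CPM), against 135 CPM in control, and Prtn3 was at 69.7 and 862 CPM. Serpinb1a was at 854 and 288 CPM and Cst7 at 298 and 16.0 CPM. The control level of Cst7 rests on 5 UMIs here (18.6-fold, 7.94 to 57.3). The direction of Mpo and Ctsg against control rests on which cells are set beside each other, and that of Elane, Prtn3, Serpinb1a and Cst7 was the same at gates of 1, 2 and 3 Hlf UMIs. The strictest gate was chosen after the data were seen.

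Neighbouring genes were read for Elane, since Prtn3 (chr10:79874476-79883174), Elane (chr10:79886247-79888215) and Prss57 (chr10:79781474-79790961) share a locus. Of 16 annotated genes within 100 kb of Elane, 10 reached 20 CPM in a library. Of the 8 that are not among the 10 genes, 3 were at least 2-fold lower in mCherry than in control (Palm, Wdr18 and Arid3a) and 0 at least 2-fold higher, beside 12.3% and 18.5% of all genes tested. Palm was at 3.09 CPM in mCherry, 38.2 CPM in non_mCherry and 41.0 CPM in control, Wdr18 at 34.1, 107 and 115 CPM and Arid3a at 12.2, 20.7 and 27.5 CPM. At the other end, R3hdm4 was at 78.5, 58.0 and 62.6 CPM. Mcpt8, the basophil protease next to Ctsg, was at 71.0, 188 and 146 CPM.

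Across 36 cluster-by-library groups, the genes most like Elane by Pearson correlation of log2(CPM + 5) were Anxa3 (0.95), Hp (0.94), Igsf6 (0.93), Mrpl33 (0.92) and Dmkn (0.91), and its closest relative in the set was Prtn3 (0.97). Those most like Serpinb1a were Lamp2 (0.92), Rgs19 (0.90), Tmem59 (0.90), Ubtd1 (0.90) and Alox5ap (0.90), and within the set its correlations were 0.82 with Cst7, 0.66 with Ctsg, 0.57 with Mpo, 0.19 with Prtn3 and 0.06 with Elane. The groups share libraries and depth, so these values are a description.

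Other granule genes were read beside the 12.3% of all tested genes that were at least 2-fold lower and the 18.5% that were at least 2-fold higher in mCherry than in control. Of 16 other primary granule genes, 14 were tested against control, 3 were at least 2-fold lower in mCherry (Plac8, Ctsz and Rab27a) and 2 higher (the granule membrane protein Cd63 and the granule proteoglycan Srgn), with a median log2 ratio of -0.17. Plac8 was at 628 CPM in mCherry, 2675 CPM in non_mCherry and 3282 CPM in control, and Cd63 at 800, 179 and 258 CPM. Of 12 secondary and tertiary granule genes, 8 were tested and 8 were at least 2-fold lower, with a median of -1.98. Among them Pglyrp1 was at 10.3, 53.8 and 63.0 CPM and Ngp at 30.1, 102 and 150 CPM. Of the 8 neutrophil markers, 7 are on this list, and their summed level was 334 CPM in mCherry, 923 CPM in non_mCherry and 1345 CPM in control; the part of neutrophil RNA was not tested.

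Of 19 other serpin, cystatin and Wfdc family genes, 3 were tested and 1 was at least 2-fold higher (18.5% of all genes). It was Serpina3g, at 424 CPM in mCherry, 110 CPM in non_mCherry and 76.2 CPM in control. The median of the tested genes was 0.14. Cst3 and Cstb, the other tested members, were at 470, 619 and 705 CPM and at 69.0, 58.4 and 62.4 CPM. The near copies Serpinb1b and Serpinb1c had at most 1 UMI in any library. Of 10 mast cell, basophil and lymphocyte granule proteases, 5 were tested, 3 were lower (Mcpt8, Prss34 and Gzmb) and 2 higher (Cpa3 and Cma1), beside the same 12.3% and 18.5%. Cpa3, the mast cell carboxypeptidase, was at 10471, 183 and 96.5 CPM and Prss34, a basophil protease, at 0.565, 210 and 202 CPM.

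Of 12 transcription factors of granulocyte progenitors, 11 were tested against control. In mCherry 4 of them were past 2-fold down and 5 past 2-fold up, beside 12.3% and 18.5% of all genes, and the list's median was 0.83 on the log2 scale. Cebpa, which drives the granulocyte-monocyte step, was at 2.10 CPM in mCherry, 28.3 CPM in non_mCherry and 46.6 CPM in control. Irf8, the monocyte factor, was at 15.5, 186 and 263 CPM, and Cebpe, of late granulocyte maturation, at 3.28, 39.4 and 48.8 CPM. Id1, an inhibitor of helix-loop-helix factors, was at 87.0, 14.3 and 12.2 CPM. Spi1, which encodes PU.1, was at 73.5, 147 and 187 CPM and Cebpb at 228, 53.3 and 101 CPM, both named with knowledge of their levels. The part of these factors in the levels of Elane and Prtn3 was not tested.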

How the data were processed

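Single-cell RNA was measured in 3 10x Genomics libraries, 1 for each group. Per the submitters' processing notes, Cell Ranger 6.1.2 and mm10 were used; the matrix headers carry software version 3.1.0, and the chemistry is not given in the sources used here. The deposited files hold raw UMI counts per gene and barcode, already limited to cell barcodes by the authors. From these counts, barcodes with at least 1000 genes, at least 2000 UMIs and at most 10% mitochondrial UMIs were kept, and doublets (a Scrublet-type score above 0.25) were left out: 269 mCherry, 206 non_mCherry and 209 control barcodes (2.58%, 2.56% and 2.31%).

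Levels are UMIs summed over cells and scaled to a total of 1000000 (CPM) with exact 95% Poisson intervals. Folds are quotients of CPM with exact conditional intervals, and log2 ratios add 5 CPM. Shares have Clopper-Pearson intervals after thinning each cell to 4000 UMIs, which left out 337 mCherry, 1095 non_mCherry and 295 control cells. A count of 0 allows 3 counts, and PCR duplicates are removed by UMIs, so intervals cover counting error only. Genes were compared where either library reached 20 CPM, and a size of 2-fold was used to describe, since 1 library a group allows no test. Folds between library sums weight cells by depth.

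Cells of the 3 libraries were clustered together (Leiden, resolution 1, 2000 variable genes, 30 components, 15 neighbours; scanpy 1.11.5, Python 3.11.15) without the 10 genes and the primary, secondary and tertiary granule lists. Clusters were named from marker lists, by a score set after the data were seen. All 10 genes are reported. Of each list of related genes, up to 4 furthest from 0 by log2 ratio were named, and for Elane and Serpinb1a the 5 most alike genes. The genes and lists were chosen with earlier results of these data known. Gene positions come from GENCODE M21 (mm10) and promoters from RefSeq. The 2-fold calls were tried on simulated counts and the thinning on control cells, while the interval steps were not tested. Alternatives changed the cell filter, doublets, scaling, library total, pseudocount, weighting, depth, cluster resolution and Hlf gate. A gene of the transcription factor list that has no row in the matrices was not analysed here.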

Additional observations from a re-analysis of the deposited data

How the results depend on the processing

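With 1 library a group, no replicate could be left out. No paired analysis was possible because each group is 1 library. Of 270 log2 ratios recomputed for the 10 genes under the alternatives, 5 that were past 2-fold in the main setting turned direction. Smaller ratios that turned, as in non_mCherry over control in Hlf-positive cells, are not in this count. Ctsg in mCherry over control turned to 0.23 with at least 2 Hlf UMIs and to 2.07 with at least 3, and Mpo turned to 0.26 with at least 3. In mCherry over non_mCherry with at least 2 Hlf UMIs, Mpo turned to 0.33 and Slpi to 0.031. The share of cells with Mpo, mCherry minus control, turned to 2.49 points at 8000 UMIs a cell. These gates leave few cells (3064 mCherry, 63 non_mCherry and 222 control cells with at least 2 Hlf UMIs), and the cause was not tested. Genes at least 2-fold lower in mCherry numbered 4 against control with at least 3 Hlf UMIs and 4 against non_mCherry with at least 2, in place of 7 each. In non_mCherry over control, 4 were lower when cells were weighted equally and 0 in Hlf-positive cells, in place of 2, and 1 was higher with at least 2 Hlf UMIs, in place of 0. The log2 ratio of Serpinb1a, mCherry over control, was 2.06; it was 1.86 with median-of-ratios scaling, 2.09 with a total free of mitochondrial genes and Malat1, 2.07 with a pseudocount of 1 CPM, 2.14 with cells weighted equally, and 1.87, 1.90 and 1.55 with at least 1, 2 and 3 Hlf UMIs. That of Cst7 was 1.63, and in the same order 1.43, 1.66, 1.66, 1.69, 2.46, 3.56 and 3.85, the last resting on 5 Cst7 UMIs in control. Median-of-ratios scaling moved the median of all genes by -0.18 over control and -0.17 over non_mCherry. Leaving out the 48 mCherry cells outside the mCherry clusters moved Elane over control to -9.15 in place of -7.37. That alternative and the gate of 3 Hlf UMIs were chosen after seeing the data. Slpi, Prss57 and, within the mCherry clusters, Elane rest on 11 to 98 UMIs in mCherry, and depth limits them.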
